A study of Mus musculus with 6 samples.

Results

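The laminin chains and the integrin subunits, the ligands and the receptors through which cells hold on to basement membrane, were examined in RNA-Seq counts of cultured Slit2fl/fl and Slit2th sympathetic neurons. Members were every gene whose symbol is Lam with a, b or c and a digit, Itga with a number or a letter, or Itgb with a digit. This found 36 of the 20173 genes in the count table, namely 11 laminin chains, 17 integrin alpha subunits and 8 integrin beta subunits. Itgax, which the same pattern would take, was not analysed here. The 3 Slit2fl/fl libraries carry the label SLIT2f/f, a floxed Slit2 allele without Cre. The 3 Slit2th libraries carry the label SLIT2-knockout, in which Cre under the promoter of tyrosine hydroxylase (Th) removes the floxed allele. Both groups came from 3-week-old male mice on a C57BL/6J background, whose sympathetic chains were dissociated and kept for 4 to 5 days in B27 neural medium. No library carried Cre without the floxed allele. The isolation method of the study names dorsal root neurons and its text elsewhere names sympathetic ganglions, and the labels do not say that the libraries came from separate animals or cultures, so p-values measure the spread between these libraries, which may be technical.

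Laminins are cross-shaped proteins of an alpha, a beta and a gamma chain that assemble into the sheet of the basement membrane. In peripheral nerve, Schwann cells and satellite glia surround themselves with such a sheet, and laminin is a standard substrate on which neurites grow in culture. Integrins are pairs of an alpha and a beta subunit that span the plasma membrane, and the pair decides whether laminin, collagen, proteins with an RGD sequence or latent TGF-beta is bound.

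Total counts were 1533367 to 3155406 in the Slit2fl/fl libraries against 1255939 to 1999485 in the Slit2th libraries, of which 3157 to 6938 per library fell on the 36 members. A floor of 3 counts is worth 0.961 to 2.65 CPM, by library (CPM being counts relative to the TMM-normalized library size), which covers counting error only. Slit2 itself measured 47.8 ± 6.33 CPM in Slit2fl/fl against 13.9 ± 2.12 CPM in Slit2th (SD, n = 3 each), with every Slit2th library below every Slit2fl/fl library. The labels give the cell type as neuron, but Th had 0 counts in all 6 libraries, and 18 sympathetic neuron markers in the table summed to 170 to 574 CPM in the Slit2fl/fl libraries against 185 to 194 CPM in the Slit2th libraries. Markers of Schwann cells and satellite glia (20 genes, all with counts) summed to between 5948 and 12048 CPM in Slit2fl/fl and between 13759 and 20599 CPM in Slit2th, without overlap. Of the 18 glial markers tested, 10 had log2 fold changes above and 8 below 0. Replicate 1 stood apart in both groups, with Pearson correlations of log2 CPM across genes of 0.841 and 0.863 to the other Slit2fl/fl libraries, against 0.937 between those, and of 0.868 and 0.867 in Slit2th against 0.965.

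Of the 36 members, 23 reached 1 CPM in at least 3 libraries and were tested, namely 7 laminin chains, 10 integrin alpha subunits and 6 integrin beta subunits. Lamb3, Itgae, Itgal and Itgb6 had no count in any library. The other 9 untested members had between 1 and 12 counts over all 6 libraries, and included Itga3, the subunit of an epithelial laminin receptor, with 8 counts, Itga10, a collagen receptor subunit of cartilage, with 12 and the platelet subunit Itga2b with 7. Itga3 had 3, 1 and 3 counts in the Slit2fl/fl libraries against 0, 0 and 1 in the Slit2th libraries, and Itga10 had 9, 1 and 1 against 0, 0 and 1, mostly at or under the floor. Lama3, a laminin alpha chain of epithelia, had 3 counts.

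Compared per length (CPM per kb of merged exons), the beta subunits Itgb1 and Itgb8 led all members, with a mean over the 6 libraries of 95.1 and 86.4 CPM per kb. Itgb1 ranged from 74.8 to 125.8 CPM per kb and Itgb8 from 28.3 to 118.9 CPM per kb, so the order of this pair was not separated by the spread. The alpha subunits Itga6 (mean 30.4 CPM per kb, range 28.8 to 32.9) and Itgav (mean 28.9 CPM per kb, range 16.3 to 39.6) followed, again with overlapping ranges, and then Itga7 with 16.2 CPM per kb. The highest laminin chain was Lamb1 with a mean of 12.9 CPM per kb and a range of 8.59 to 21.002, which overlapped that of Itga7 (11.7 to 31.7). Below these came Itgb4 at 8.98, Itga5 at 6.61, Lama4 at 6.52 and Lamb2 at 4.0 CPM per kb. The levels of Itgb5, Lamc1, Itga2 and Lama2 lay between 2.26 and 3.72 CPM per kb, and the last 9 tested members, from Lama5 down to Itga4, lay between 0.231 and 0.969 CPM per kb.

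**Figure D1:**
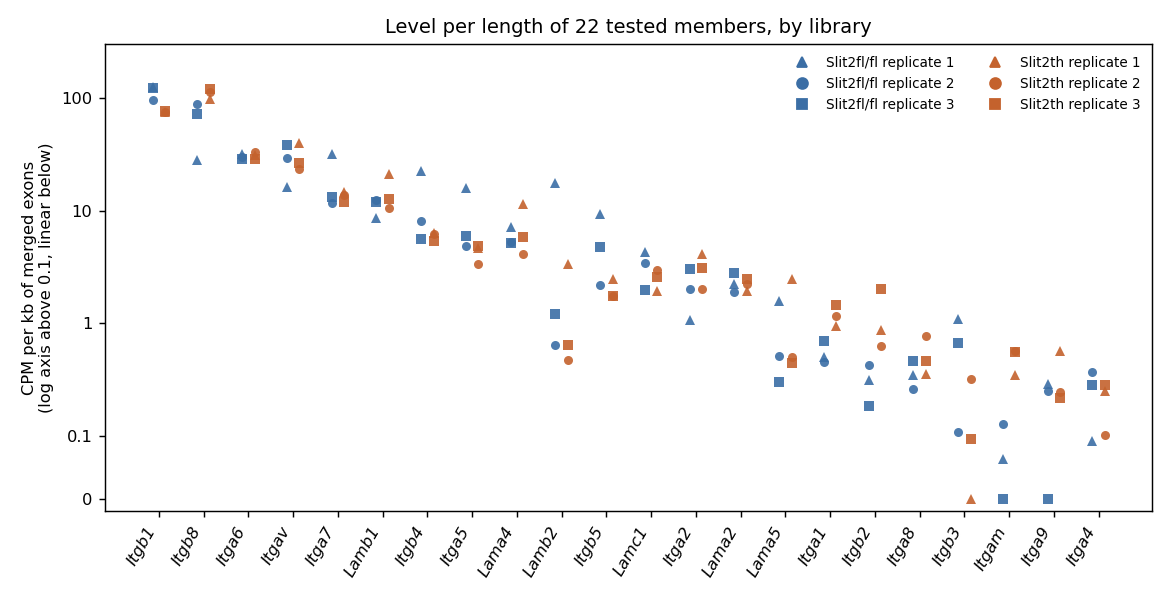
Level per length of 22 of the 23 tested members in each library, ordered by the mean over all 6 libraries, with CPM per kb of merged exons on an axis that is logarithmic above 0.1 and linear below it; colours are genotypes and symbols are replicate numbers. Itgb1 (mean 95.1) and Itgb8 (mean 86.4) stand above Itga6 (mean 30.4), and the triangle of Slit2fl/fl replicate 1 stands alone for Lamb2, at 17.7 CPM per kb.

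To see whether loss of Slit2 went with a change of matrix ligands or receptors, Slit2th was compared with Slit2fl/fl. After adjustment over all genes, 0 of the 23 tested members passed (edgeR's quasi-likelihood test), and likewise 0 of all 12152 genes tested (0%), while DESeq2 passed 34 genes and edgeR's exact test 17, none of them members. The smallest adjusted p of a member was 0.422, for Itgam. Before adjustment, an edgeR p under 0.05 was given to 3 members that were higher in Slit2th (Itga1, Itgam and Itgb2), against a background of 3.99% of all genes tested. It was given to 2 members that were lower, Itgb5 among them, against 6.78% of all genes. The groups did not overlap for 7 members. Of these, 4 were higher in every Slit2th library (Itga1, Itgb8, Itgam and Itgb2), which is 17.4% of the 23 against 8.74% of all genes tested. The other 3 were lower in every Slit2th library, Itga5 and Itgb1 among them, which is 13.0% of the 23 against 9.72% of all genes tested. The exact permutation p of each of these 7 was 0.10, two-sided, the smallest that 3 libraries against 3 allow. Of the higher members, Itgam reached 1 CPM in the Slit2th libraries only, and Itgb2 in these and in Slit2fl/fl replicate 2. Both thus met the filter through the group in which they are higher, so their part in these counts is no support for a difference. Fold changes were positive for 12 and negative for 11 members, with a median log2 fold change of -0.07 over the laminin chains and 0.06 over the integrin subunits, beside -0.05 over all genes. Summed over the laminin chains the level was 373, 261 and 264 CPM in the Slit2fl/fl libraries against 445, 227 and 268 CPM in the Slit2th libraries. Summed over the integrin subunits it was 1849, 2176 and 2205 CPM in the Slit2fl/fl libraries against 2341, 2341 and 2400 CPM in the Slit2th libraries. These sums did not overlap, and Itgb8 alone differed by more than the sum did. Scaled to library totals alone, the integrin sum of Slit2th replicate 1 lay below those of Slit2fl/fl replicates 2 and 3, so the groups then overlapped.

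**Figure D2:**
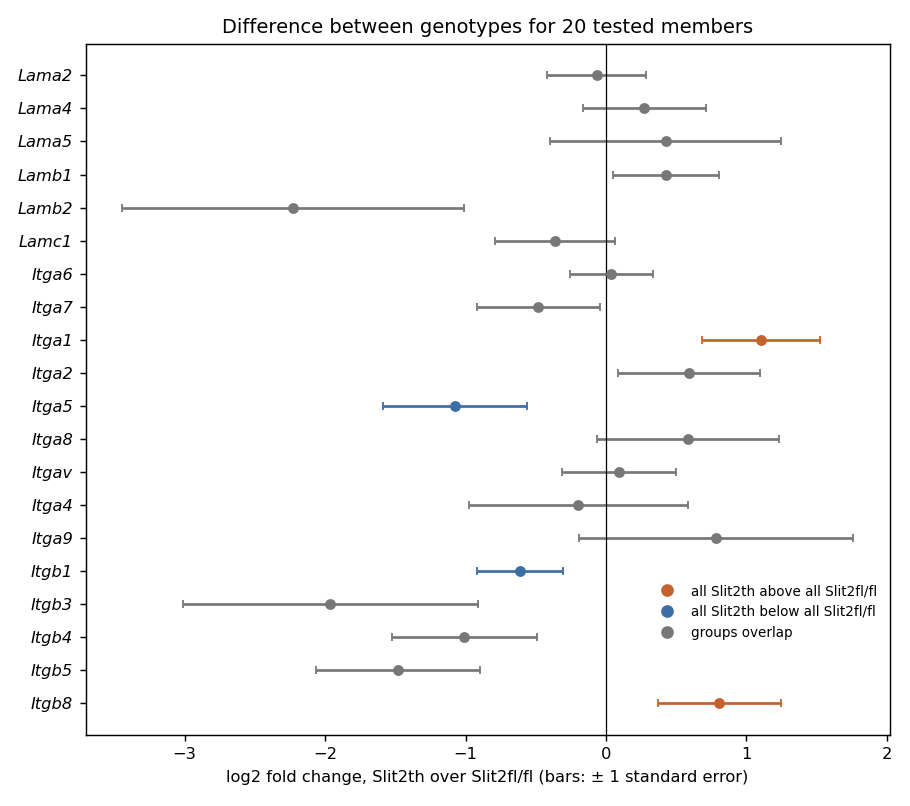
The log2 fold change of 20 of the 23 tested members, Slit2th over Slit2fl/fl, on the horizontal axis with bars of 1 standard error, members ordered by role; Itgam and Itgb2, whose Slit2fl/fl counts are at or under the floor, are left out, and colour marks whether the groups overlap. The members lie on both sides of 0, from -2.23 (Lamb2) to 1.11 (Itga1), and colour marks 2 members with all Slit2th libraries above and 2 with all below the Slit2fl/fl libraries.

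Among the laminin alpha chains, Lama4 and Lama2 were the main transcripts. Lama4, a chain of endothelial, perineurial and Schwann cell laminin, measured 87.1, 63.5 and 62.5 CPM in the Slit2fl/fl libraries against 139.4, 49.6 and 70.0 CPM in the Slit2th libraries. Lama2, the chain of the Schwann cell and muscle basement membrane that is lost in a form of congenital muscular dystrophy, measured 36.8, 31.1 and 45.5 CPM in the Slit2fl/fl libraries against 31.8, 36.3 and 40.1 CPM in the Slit2th libraries. Both overlapped between genotypes, with a log2 fold change of 0.27 (SE 0.44, adjusted p = 0.810) for Lama4 and -0.07 (SE 0.35, adjusted p = 0.948) for Lama2. The 12 endothelial markers, which go with Lama4, all had counts and summed to 19.3 to 37.1 CPM in Slit2fl/fl against 15.0 to 20.5 CPM in Slit2th, with overlap. Per length, Lama4 held between 59.8% and 72.3% of the alpha chain level in every library and Lama2 between 12.2% and 33.3%. Lama5, a widespread chain of mature basement membranes, was low in replicates 2 and 3 of both genotypes (3.41 to 5.83 CPM) and higher in replicate 1 of both, at 17.9 CPM in the Slit2fl/fl and 28.2 CPM in the Slit2th library. Its values thus split by replicate number and overlapped between genotypes (log2 fold change 0.42, SE 0.82, adjusted p = 0.845).

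Lamb1 was the main beta chain except in Slit2fl/fl replicate 1. Lamb1, the beta chain of many embryonic and neural laminins (GRCm38 chromosome 12, plus strand, 31265234 to 31329644), measured 85.2, 123.8 and 117.1 CPM in the Slit2fl/fl libraries against 208.3, 105.0 and 125.3 CPM in the Slit2th libraries. Slit2th replicate 1 was the high library, and the others overlapped (log2 fold change 0.43, SE 0.37, adjusted p = 0.651). Lamb2, the beta chain of the neuromuscular synapse and the kidney filter, had 336, 6 and 13 counts in the Slit2fl/fl libraries against 23, 6 and 7 counts in the Slit2th libraries, or 107.6, 3.89 and 7.39 CPM and 20.3, 2.86 and 3.95 CPM. Slit2fl/fl replicate 1 thus stood above every other library, and Lamb2 took 67.3% of the beta chain level per length there against 4.26% to 13.7% in the other 5. The fitted log2 fold change of Lamb2 was -2.23 (SE 1.22, adjusted p = 0.509) turned to 0.59 without Slit2fl/fl replicate 1, and was -0.75 without replicate 1 of both groups.

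**Figure D3:**
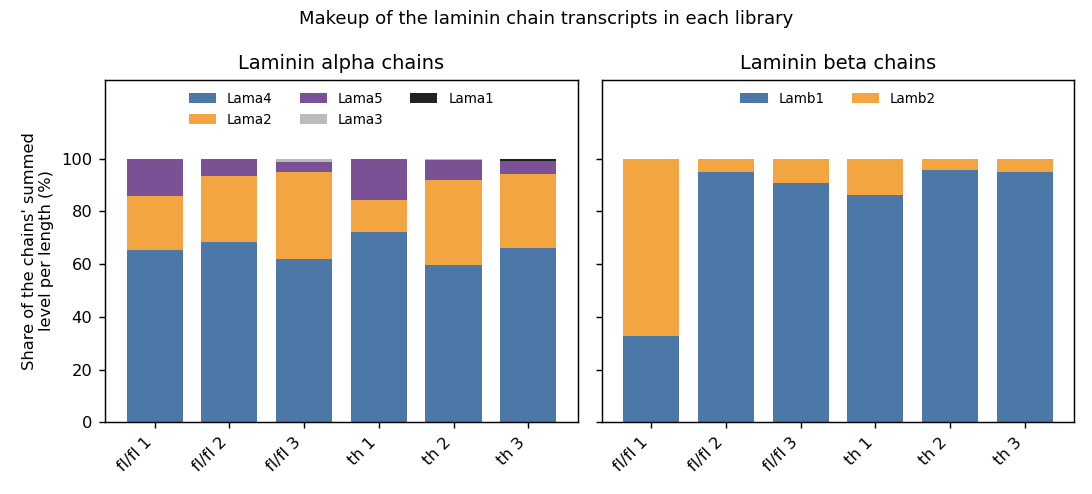
Share of each chain in the summed level per length of the laminin alpha chains (left) and beta chains (right), in percent, with a stacked bar for each library; fl/fl and th stand for Slit2fl/fl and Slit2th, and the digit is the replicate number. Lama4 makes up 59.8% to 72.3% of the alpha chains throughout, and Lamb1 makes up 86.3% to 95.7% of the beta chains except in Slit2fl/fl replicate 1, where it holds 32.7%.

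Lamc1, the gamma chain of most laminins, measured 35.2, 28.5 and 16.5 CPM in the Slit2fl/fl libraries against 15.9, 24.8 and 21.4 CPM in the Slit2th libraries (log2 fold change -0.37, SE 0.43, adjusted p = 0.735). The levels of Lamc1 overlapped between the genotypes.

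Of the integrin alpha subunits that bind laminin, Itga6 varied little across libraries. Itga6 pairs with Itgb1 or Itgb4 as a laminin receptor of glia and epithelia, lies on the plus strand of chromosome 2 (71745616 to 71858416), and measured 285, 268 and 260 CPM in the Slit2fl/fl libraries against 278, 297 and 260 CPM in the Slit2th libraries. The log2 fold change was 0.04 (SE 0.30, adjusted p = 0.965). Itga7, which with Itgb1 binds laminin in muscle and in regrowing axons, measured 256, 94.6 and 106 CPM in the Slit2fl/fl libraries against 119, 112 and 96.5 CPM in the Slit2th libraries. Only Slit2fl/fl replicate 1 stood above the rest (log2 fold change -0.48, SE 0.44, adjusted p = 0.660), and without it the value was 0.13. The ratio of Itga6 to Itga7 per length was 0.999 in that library and 2.09 to 2.54 in the other 5. Itgb4, the partner of Itga6 in myelinating Schwann cells and hemidesmosomes, had the same high library, with 155.9, 57.0 and 39.2 CPM in the Slit2fl/fl libraries against 44.1, 43.9 and 37.8 CPM in the Slit2th libraries. The log2 fold change was -1.01 (SE 0.52, adjusted p = 0.495) and -0.20 without Slit2fl/fl replicate 1. Reads on the exons of Itga7 and Itgb4 are uncertain in part, since each overlaps an antisense gene (Mettl7b and B230344G16Rik) and the strand setting of the counting is not given.

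The beta subunits of highest level per length, Itgb1 and Itgb8, differed in opposite directions. Itgb1, the shared partner of most collagen, laminin and fibronectin receptors (ENSMUSG00000025809, plus strand of chromosome 8, 128685654 to 128733200), had 1603, 607 and 883 counts in the Slit2fl/fl libraries against 346, 640 and 549 in the Slit2th libraries. After normalization this gave 513, 393 and 502 CPM in the Slit2fl/fl libraries against 305.4, 305.3 and 309.9 CPM in the Slit2th libraries, a mean of 470 ± 66.2 against 307 ± 2.60 CPM (SD, n = 3 each). Every Slit2th library lay below every Slit2fl/fl library, and the Slit2th libraries lay close together. Itgb8, which pairs with Itgav and releases TGF-beta from its latent form (minus strand of chromosome 12, 119158022 to 119238802), had 979, 1514 and 1393 counts in the Slit2fl/fl libraries against 1219, 2631 and 2329 in the Slit2th libraries. This gave 313, 981 and 792 CPM in the Slit2fl/fl libraries against 1076, 1255 and 1315 CPM in the Slit2th libraries, a mean of 696 ± 344 against 1215 ± 124 CPM (SD, n = 3 each). Every Slit2th library lay above every Slit2fl/fl library, with Slit2fl/fl replicate 1 the lowest by far, but the groups of Itgb8 overlapped when counts were scaled to library totals alone. The log2 fold change was -0.61 (SE 0.30, adjusted p = 0.487) for Itgb1 and 0.81 (SE 0.44, adjusted p = 0.509) for Itgb8, and without Slit2fl/fl replicate 1 it was -0.54 and 0.45. Neither gene passed the adjusted threshold, and no annotated gene overlaps the exons of either.

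The ratio of Itgb8 to Itgb1 within a library does not depend on the scaling of libraries. Per length it was 0.225, 0.920 and 0.582 in the Slit2fl/fl libraries against 1.30, 1.52 and 1.57 in the Slit2th libraries, so that Itgb1 was the higher in every Slit2fl/fl library and Itgb8 the higher in every Slit2th library. This ratio was chosen after the values were seen and is given without a test. Of the summed beta subunit level per length, Itgb1 held 49.2% to 67.1% in the Slit2fl/fl libraries against 37.2% to 41.2% in the Slit2th libraries. The glial marker sums, 5948, 11114 and 12048 CPM in the Slit2fl/fl libraries against 20599, 13759 and 15816 CPM in the Slit2th libraries, were likewise apart, and their part in the difference of Itgb8 was not tested. In bulk libraries such as these, fewer cells of a type and less RNA per cell cannot be told apart.

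**Figure D4:**
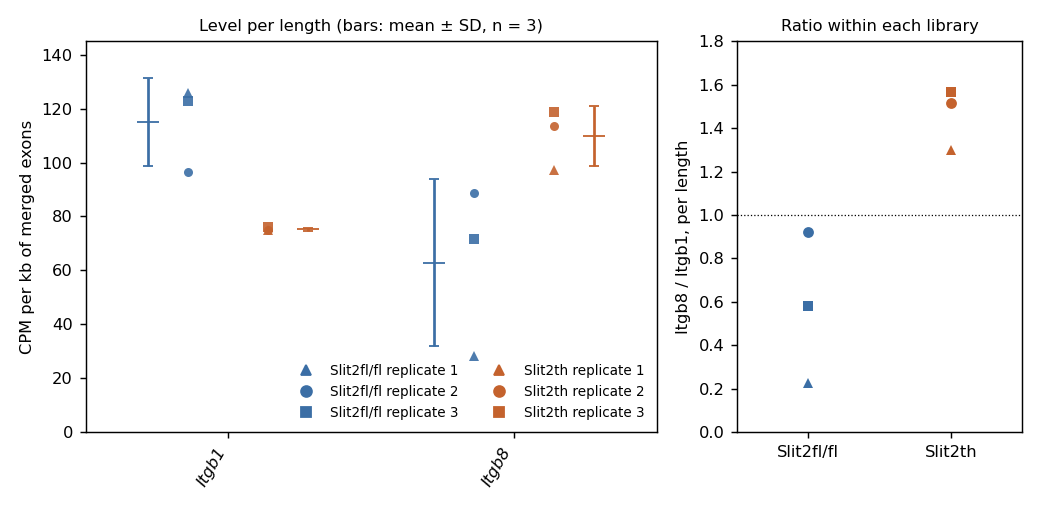
Left, CPM per kb of merged exons of Itgb1 and Itgb8 in each library (symbols by replicate) with the mean and SD of each genotype, n = 3; right, the ratio of Itgb8 to Itgb1 per length in each library, the dotted line marking equal levels. The ratio is 0.225 to 0.920 in Slit2fl/fl and 1.30 to 1.57 in Slit2th.

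Itga1 and Itga5 were the other non-overlapping subunits outside the leukocyte integrins. Itga1, a collagen and laminin receptor subunit (minus strand of chromosome 13, 114953096 to 115101964), had 29, 13 and 23 counts in the Slit2fl/fl libraries against 20, 45 and 48 in the Slit2th libraries, or 9.29, 8.43 and 13.1 CPM and 17.7, 21.5 and 27.1 CPM. The levels in Slit2th were above those in Slit2fl/fl in every pair of libraries (log2 fold change 1.11, SE 0.42, edgeR adjusted p = 0.429). Its exons overlap Gm49395 on the same strand, with which its reads may be shared. Itga1 is also known from smooth muscle and pericytes, whose 10 markers all had counts. These markers summed to 154 to 296 CPM in Slit2fl/fl against 299 to 409 CPM in Slit2th, most of it Mcam. Of the 6 markers tested, 2 had log2 fold changes above and 4 below 0 (median -0.69). The part of these cells in the result was not tested. Itga5, the fibronectin receptor subunit (minus strand of chromosome 15, 103344286 to 103366763), measured 78.8, 24.0 and 29.6 CPM in the Slit2fl/fl libraries against 22.9, 16.7 and 23.7 CPM in the Slit2th libraries. The gap between the lowest Slit2fl/fl and the highest Slit2th library was narrow (log2 fold change -1.07, SE 0.51, adjusted p = 0.477), and the value was -0.34 without Slit2fl/fl replicate 1. The groups of Itga5 overlapped with the size factors of DESeq2, with library totals alone and with offsets corrected for GC content.

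Promoter sequence is shown for the 4 non-overlapping members with an entry in the RefSeq promoter table (GRCm38.p6) that are not leukocyte integrins. These are Itgb1, Itgb8, Itga1 and Itga5, none of which passed the adjusted threshold. Promoters were found for 22 of the 36 members. The 150 bases before each annotated start are given on the coding strand, 5′ to 3′, with capitals for a GC box (GGGCGG, both strands) or a CCAAT box (CCAAT, both strands); TATAAA, also searched, has no match in them.
Itgb1, chr8:128685504-128685653, plus strand: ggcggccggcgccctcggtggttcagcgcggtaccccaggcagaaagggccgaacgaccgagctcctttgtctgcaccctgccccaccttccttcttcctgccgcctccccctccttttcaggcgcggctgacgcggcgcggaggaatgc
Itgb8, chr12:119238277-119238426, minus strand: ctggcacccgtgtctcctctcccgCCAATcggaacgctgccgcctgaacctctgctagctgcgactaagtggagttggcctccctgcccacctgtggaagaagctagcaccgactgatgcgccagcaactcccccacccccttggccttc
Itga1, chr13:115101965-115102114, minus strand: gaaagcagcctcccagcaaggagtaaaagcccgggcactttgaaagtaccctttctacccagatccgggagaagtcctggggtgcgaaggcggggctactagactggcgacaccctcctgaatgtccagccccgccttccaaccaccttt
Itga5, chr15:103366792-103366941, minus strand: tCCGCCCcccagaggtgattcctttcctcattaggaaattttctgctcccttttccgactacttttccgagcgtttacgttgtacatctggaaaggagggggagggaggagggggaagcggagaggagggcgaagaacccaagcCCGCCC
The Itgb1 window holds 16 CG pairs and no motif, that of Itgb8 holds 8 CG pairs and 1 CCAAT box, that of Itga1 holds 6 CG pairs and no motif, and that of Itga5 holds 8 CG pairs and 2 GC boxes. The median over all promoters is 4 CG pairs, and 28.6% of all 32851 promoters of this length hold a GC box, 24.5% a CCAAT box and 7.57% TATAAA. A GC box was found in 6 and a CCAAT box in 1 of the 15 tested members with a promoter, and these matches describe letters only.

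Itgav, Itgb5, Itga2, Itgb3, Itga8, Itga4 and Itga9 overlapped between the genotypes. Itgav, the alpha partner of Itgb8, Itgb5 and Itgb3, measured 175, 315 and 410 CPM in the Slit2fl/fl libraries against 425, 252 and 282 CPM in the Slit2th libraries, where each replicate 1 was at an opposite end (log2 fold change 0.09, SE 0.40, adjusted p = 0.937). Without replicate 1 of both groups the log2 fold change of Itgav was -0.46. The ratio of Itgb8 to Itgav per length was 1.74, 3.03 and 1.87 in the Slit2fl/fl libraries against 2.46, 4.83 and 4.53 in the Slit2th libraries, which overlapped. Itgb5, a vitronectin receptor subunit, measured 33.3, 7.78 and 17.1 CPM in the Slit2fl/fl libraries against 8.83, 6.202 and 6.209 CPM in the Slit2th libraries. Its groups overlapped through Slit2fl/fl replicate 2 (log2 fold change -1.48, SE 0.58, edgeR adjusted p = 0.441), and the value was -0.82 without Slit2fl/fl replicate 1. Itga2, a collagen receptor subunit 20.996 kb from Itga1, measured 7.69, 14.3 and 21.6 CPM in the Slit2fl/fl libraries against 29.1, 14.3 and 22.0 CPM in the Slit2th libraries, with a log2 fold change of 0.59 (SE 0.51, adjusted p = 0.641) that was -0.01 without replicate 1 of both groups. Itgb3, known from platelets and osteoclasts, had between 0 and 6.404 CPM. Itga8, a receptor subunit for nephronectin, measured 2.56, 1.94 and 3.41 CPM in the Slit2fl/fl libraries against 2.65, 5.73 and 3.39 CPM in the Slit2th libraries. The receptor subunits Itga4, which binds VCAM1 and fibronectin (1.28, 5.19 and 3.98 CPM in the Slit2fl/fl libraries against 3.53, 1.43 and 3.95 CPM in the Slit2th libraries) and Itga9, which binds tenascin (2.24, 1.94 and 0 CPM in the Slit2fl/fl libraries against 4.41, 1.91 and 1.69 CPM in the Slit2th libraries) were near the floor and overlapped.

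The leukocyte integrins were close to the limit of detection. Itgam, the alpha subunit of the complement receptor of macrophages and neutrophils, had 1, 1 and 0 counts in the Slit2fl/fl libraries against 2, 6 and 5 counts in the Slit2th libraries. Its partner Itgb2 had 3, 2 and 1 counts in the Slit2fl/fl libraries against 3, 4 and 11 counts in the Slit2th libraries. Both were higher in every Slit2th library after normalization (edgeR adjusted p = 0.422 for Itgam and 0.462 for Itgb2), but no fold is given, since the Slit2fl/fl counts are at or under the floor. The exons of Itgam overlap Gm49368 on the same strand. The alpha subunits Itgal and Itgae had 0 counts and Itgad 2. The 15 macrophage markers summed to 129, 71.3 and 37.5 CPM in the Slit2fl/fl libraries against 673, 128 and 150 CPM in the Slit2th libraries, all 15 had counts, and of 11 tested 10 had a positive log2 fold change. Adgre1, Ptprc, Lyz2, C1qa and Mrc1 among them were higher at an unadjusted edgeR p under 0.05, which is 45.5% of the 11 beside 3.99% of all genes. Ptprc reached 1 CPM in the Slit2th libraries only, and Adgre1 in these and in Slit2fl/fl replicate 3. Both thus met the filter through the group in which they are higher, so their part in this count is no support for a difference. The part of macrophages in the leukocyte integrin values was not tested.

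Several members differed widely between replicates of a genotype, and these differences went along with base composition. Across the 23 tested members, the GC content of the longest transcript (40.4% in Itgb8 to 60.003% in Itgb4) had a Pearson correlation of 0.80 with the log2 difference of replicate 1 from replicates 2 and 3 in Slit2fl/fl, and of 0.36 in Slit2th. Over all 12146 tested genes with a value these correlations were 0.52 and 0.15, and all points share the same libraries. In Slit2fl/fl, replicate 1 was above the other replicates by 4.08 on the log2 scale for Lamb2, 1.79 for Lama5, 1.70 for Itgb4 and 1.53 for Itga5, and was below them by a log2 difference of -1.49 for Itgb8 and -1.03 for Itgav. The log2 fold change between genotypes had a correlation with GC content of -0.43 across the members and -0.31 across all genes. With offsets corrected for GC content, an alternative added after seeing the data, the log2 fold change of Itgb1 stood at -0.73, Itgb8 at 0.61, Itga1 at 0.88, Itga5 at -0.43 and Itgb4 at -0.29. Without replicate 1 of both groups, 0 of the 21 members tested passed, against 0.767% of 11473 genes called higher and 2.52% called lower. Itgb1 was then at -0.55 (SE 0.19, adjusted p = 0.136), Itgb8 at 0.52 (SE 0.18, adjusted p = 0.138) and Itga1 at 1.14 (SE 0.40, adjusted p = 0.154), all by edgeR's quasi-likelihood test.

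**Figure D5:**
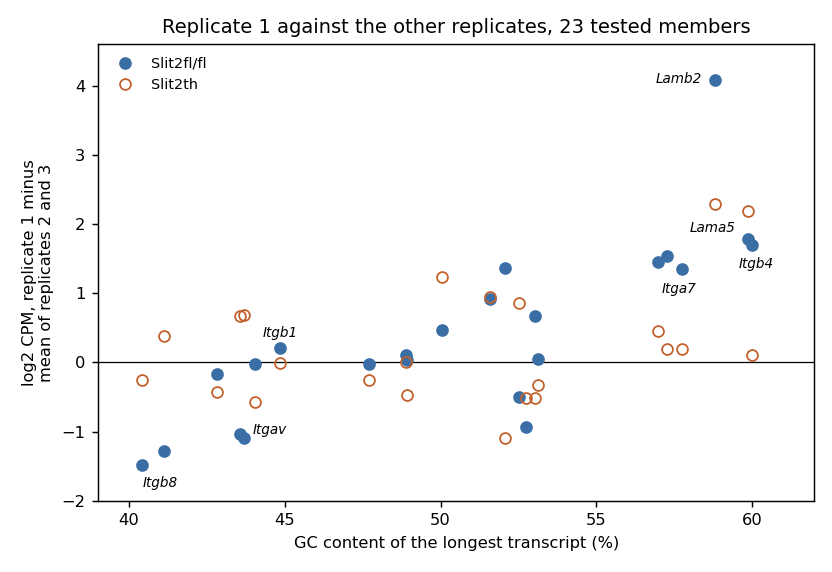
GC content of the longest transcript (%) of each tested member on the horizontal axis, and the log2 CPM of replicate 1 minus the mean of replicates 2 and 3 of the same genotype on the vertical axis, filled for Slit2fl/fl and open for Slit2th. In Slit2fl/fl the points climb from -1.49 for Itgb8 to 4.08 for Lamb2 (r = 0.80, n = 23 members), and in Slit2th they are more scattered (r = 0.36).

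Per length, the matrix proteins Sparc (1030 to 1926 CPM per kb) and Nid1 (146 to 172 CPM per kb) stood above every laminin chain in every library. Of 15 tested basement membrane partners, 10 had log2 fold changes above and 5 below 0 (median 0.34), with 0 higher and 1 lower at an unadjusted edgeR p under 0.05, beside 3.99% and 6.78% of all genes. The groups did not overlap for 5 that were higher, Nid1 among them, and 2 that were lower, beside 8.74% and 9.72% of all genes. Sparc, a matrix protein that binds collagen, measured a mean of 5179 CPM in the Slit2fl/fl libraries against 5395 CPM in the Slit2th libraries, and Nid1, the nidogen that ties laminin to collagen IV, 1074 ± 54.4 and 1166 ± 30.6 CPM (SD, n = 3 each). Col18a1 measured 196 ± 114 and 165 ± 29.5 CPM (SD, n = 3 each). The lower gene was Col4a2, a chain of collagen IV, with 252, 120 and 152 CPM in the Slit2fl/fl libraries against 49.4, 57.3 and 66.0 CPM in the Slit2th libraries (log2 fold change -1.60, SE 0.38, adjusted p = 0.422). Its groups did not overlap.

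The laminin receptors that are not integrins, among them dystroglycan and the dystrophin complex, syndecans and Bcam, comprised 20 tested genes, 9 with log2 fold changes above and 11 below 0 (median -0.32). At an unadjusted edgeR p under 0.05, 0 were higher and 2 lower (10% of the list, beside 6.78% of all genes), namely Bcam, a blood group protein that binds Lama5 (15.9 ± 14.5 CPM in the Slit2fl/fl libraries against 5.02 ± 0.437 CPM in the Slit2th libraries, SD, n = 3 each), and the syndecan Sdc3 (10.1 ± 6.76 and 2.08 ± 0.501 CPM, SD, n = 3 each). The groups did not overlap for 3 genes that were lower, Bcam and Sdc3 among them, which is 15% of the list beside 9.72% of all genes. For 0 genes of the list were they apart and higher, beside 8.74% of all genes. Dag1, the dystroglycan through which Schwann cells bind Lama2, measured 675, 572 and 453 CPM in the Slit2fl/fl libraries against 357, 522 and 523 CPM in the Slit2th libraries, which overlapped (log2 fold change -0.28, SE 0.34, adjusted p = 0.744). Rpsa, a ribosomal protein also described as a laminin receptor (435 ± 201 and 308 ± 242 CPM), and the hyaluronan receptor Cd44 (348 ± 102 and 471 ± 106 CPM, SD, n = 3 each), the other genes of highest CPM in the list, also overlapped.

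Inside the cell, 24 genes of integrin adaptors and signaling were tested, 10 with log2 fold changes above and 14 below 0 (median -0.36). At an unadjusted edgeR p under 0.05, Rsu1, a partner of the PINCH adaptors (168 ± 57.0 CPM in the Slit2fl/fl libraries against 311 ± 82.6 CPM in the Slit2th libraries, SD, n = 3 each) and the endocytic adaptor Dab2 (23.3 ± 7.01 and 51.4 ± 10.7 CPM) were higher. Pxn, the focal adhesion scaffold paxillin (49.2 ± 28.2 and 23.2 ± 5.31 CPM), and Sharpin, an inhibitor of integrin activation (13.1 ± 7.55 and 3.74 ± 1.94 CPM), were lower, with adjusted p-values of the 4 genes between 0.422 and 0.462. The 2 genes in each direction are 8.33% of the list, beside 3.99% of all genes higher and 6.78% lower. Fermt2, the kindlin that activates integrins, measured 329, 124 and 144 CPM in the Slit2fl/fl libraries against 271, 101.1 and 92.6 CPM in the Slit2th libraries, so that replicate 1 was the highest library of both genotypes. Lims1, a PINCH adaptor, measured 148 ± 69.2 and 216 ± 41.3 CPM (SD, n = 3 each).

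Of the 16 tested integrin ligands other than laminin, 8 were higher in every Slit2th library and 1 was lower, beside 8.74% and 9.72% of all genes. They included Spp1, the RGD protein osteopontin, with 1669, 6620 and 5968 CPM in the Slit2fl/fl libraries against 9110, 9735 and 10758 CPM in the Slit2th libraries (log2 fold change 1.05, SE 0.51, adjusted p = 0.480). They also included the matrix proteins Fn1 (251 ± 102 and 441 ± 95.0 CPM) and Tnc (274 ± 36.1 and 603 ± 324 CPM, SD, n = 3 each). At an unadjusted edgeR p under 0.05, Tnc and the matricellular protein Ccn2 (10.6 ± 4.92 and 36.0 ± 5.43 CPM) were higher and Mfge8, an RGD protein that bridges to dying cells (38.4 ± 27.8 and 10.4 ± 3.31 CPM) was lower, which is 12.5% and 6.25% of the list beside 3.99% and 6.78% of all genes, and none passed after adjustment. Tnc and Fn1 are also made by fibroblasts, whose 17 markers, all with counts, summed to 2675, 3609 and 2951 CPM in the Slit2fl/fl libraries against 3602, 4563 and 5071 CPM in the Slit2th libraries, with overlap, and their part in these values was not tested.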

How the data were processed

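RNA was measured in 6 libraries, 3 per genotype. The authors aligned reads with HISAT2 to mm10 and deposited whole-number counts per gene, not normalized, while the labels name GRCm39. The counting program, strand setting and annotation release are not given in the sources used here. Of 20173 gene identifiers, 20166 were found in GENCODE M21 (GRCm38), from which positions, merged exon lengths, GC content and overlaps were taken. A gene was tested if 3 or more libraries had a CPM of 1 or more. Libraries were scaled by TMM, and genotypes were set against each other by the quasi-likelihood test of edgeR 4.0.16 (limma 3.58.1, R 4.3.3), with no covariate. P-values were adjusted by Benjamini-Hochberg over the whole table (threshold 0.05). The coefficient of biological variation was 50.4%. For a single gene, log2(CPM + 1) was permuted over all 20 arrangements of the libraries (exact, two-sided). Levels between genes are per kb of merged exons.

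Members, lists and alternatives were chosen with earlier results of these data known. Named members were the up to 3 of highest level per length in each role, those with an unadjusted p under 0.05 and those whose groups did not overlap. Of each list, the 3 genes of highest CPM and those with an unadjusted p under 0.05 were named; some of these genes are not reported here. Offsets corrected for GC content, and alternatives for the count of non-overlapping members, were added after seeing the data. The tests were checked on simulated counts with known fold changes. The simulated libraries had less spread than these data and no replicate that stood apart, so the check does not measure the power of the tests here. Alternatives were other normalizations and filters, DESeq2 1.42.0 and edgeR's exact test, a block for the replicate number, and fits without single libraries or without replicate 1 of both groups.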

Additional observations from a re-analysis of the deposited data

How the results depend on the processing

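The count of members past the adjusted threshold was 0 in all 16 settings tried. At this depth, 13 of the 36 members were too low to test, while 12152 of all 20173 genes were tested. Whether these members are absent from the cells or were missed was not tested. The spread between replicates also limits the data. Members with an unadjusted p under 0.05, 5 as reported, numbered 2 when all 6 libraries had to reach 1 CPM, 3 with DESeq2, and 0 (without Slit2th replicate 3) to 7 (without Slit2fl/fl replicate 2) when each library was left out, with 3 without Slit2th replicate 1 and 2 without Slit2th replicate 2. Members whose groups did not overlap, 7 as reported, numbered 6 with the size factors of DESeq2, 5 with library totals alone, 5 with GC-corrected offsets, 7 to 11 when each library was left out, and 10 without replicate 1 of both groups. Over all genes the share was 18.5% as reported, 16.6% to 19.2% under the other scalings, 24.9% to 36.6% when each library was left out and 47.6% without replicate 1 of both groups, where the members' share was 43.5%. The count over all genes past the adjusted threshold was 7 without a filter on low counts, 34 with DESeq2, 17 with edgeR's exact test and 377 without replicate 1 of both groups. The log2 fold change reversed without replicate 1 of both groups for Itga2 (-0.0089), Itga7 (0.046), Itgav (-0.46), Lama4 (-0.094), Lamb1 (-0.080) and Lamc1 (0.035), and with GC-corrected offsets for Itga7 (0.14). Leaving out each library gave ranges across 0 for Itga4 (-0.65 to 0.22), Itga6 (-0.054 to 0.093), Itga7 (-0.76 to 0.13), Itgav (-0.17 to 0.35), Lama2 (-0.18 to 0.018), Lama4 (-0.25 to 0.56), Lama5 (-0.78 to 1.44) and Lamb2 (-3.55 to 0.59). The cause was not tested. The other 12 tested members, Itgb1 (-0.73 to -0.54) and Itgb8 (0.45 to 1.15) among them, had the same sign in each setting that could be fitted. The replicate numbers were not treated as pairs. The deviations of same-numbered libraries from their group means had correlations of 0.290, 0.242 and 0.0795, of which the last is low. Replicate 1 of either group had correlations of -0.309 to -0.0801 with replicates 2 and 3 of the other group. Between replicates 2 and 3 of different groups the values were 0.252 and 0.0482. For each gene the deviations from a group mean sum to 0, so these correlations depend on each other. They cannot decide whether the libraries are paired. Whether the replicate numbers mark a shared batch was not tested. With the replicate block, 4 members and 1614 genes in all had an unadjusted p under 0.05, against 5 and 1309 without it, and 0 members passed after adjustment.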
